A study of Mus musculus with 12 samples.

Results

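Active distal H3K4me1 sites lost in the mutant are regions of the mouse genome that carried an H3K4me1 peak away from gene ends, together with an H3K27ac peak, in a Kmt2d wild-type melanoma line, and that had no H3K4me1 peak in the list of a Kmt2d mutant line. They numbered 3952 of 17373 WT H3K4me1 peaks (22.7%), or 25.3% of the 15648 WT peaks that were distal. A peak counted as distal when it lay more than 1 kb from both ends of every protein-coding and lncRNA gene model. A site counted as lost when no mutant H3K4me1 peak lay within 1 kb, and as active when a WT H3K27ac peak lay within 1 kb. These 3 values chose the sites, so they are given only as a description.

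The mutant line is Kmt2d Mutant 493 and the other line is Kmt2d WT 971, both mouse melanoma cells grown in DMEM/F12 with fetal bovine serum. Chromatin immunoprecipitation and sequencing was done for H3K4me1, H3K27ac, H3K4me3 and H3K27me3 with Abcam antibodies, with 1 library per line and mark. The labels do not say how the mutation arose. Each genotype is a single line, so genotype and line cannot be told apart, and no difference below has a replicate check.

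H3K4me1 marks enhancers, the distal elements that raise transcription of genes on the same chromosome. KMT2D is one of the main methyltransferases that place it there, and it works in a complex that also holds the H3K27 demethylase KDM6A. H3K27ac, placed by CBP and p300, marks the enhancers that are active, while H3K4me1 without H3K27ac is read as a primed state. H3K4me3 is the mark of active promoters and H3K27me3 that of Polycomb repression.

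The mutant lists held 3649 H3K4me1, 18751 H3K27ac and 17987 H3K4me3 peaks, and the WT lists 17373, 26415 and 23154. Sequencing depth is not given in the sources used here, so its part in the shorter mutant H3K4me1 list was not tested. Absence of a peak from a list is not absence of signal. By its file name, the mutant H3K27me3 list was called against the WT H3K27me3 library, which would make its 1300 regions ones with more H3K27me3 in the mutant. Kmt2d itself carried H3K4me3 in both lines at an end of its gene and no lost active site within 50 kb, which does not test the mutation. Of 24 melanocyte and pigment genes, 13 in the mutant line and 10 in the WT line had an H3K4me3 peak at an end, with Mitf, Pmel and Mlph marked in both and Sox10 and Mlana in the mutant line alone. Tyr, Tyrp1 and Dct, which make melanin, had no such peak in either line. The same count for markers of other cell types was 7 and 4 of 12 for keratinocytes, 7 and 8 of 12 for fibroblasts, 4 and 4 of 12 for endothelial cells and 3 and 3 of 12 for immune cells. The part of these line differences in the loss of sites was not tested.

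The reference sequence of most sites was not analysed here. RefSeq start windows on mm10, which run from 250 bases before a listed transcript start to 50 bases from it on, overlapped 18 sites, because internal starts lie away from gene ends. At 3 of these sites the window also held bases of the linked WT H3K27ac peak. The 3 windows are shown because each shares bases with both a lost H3K4me1 site and its WT H3K27ac peak. In none of the 3 did the transcript start itself lie in the WT H3K27ac peak. Capitals mark the bases that belong both to the site and to the WT H3K27ac peak.
Gm14206: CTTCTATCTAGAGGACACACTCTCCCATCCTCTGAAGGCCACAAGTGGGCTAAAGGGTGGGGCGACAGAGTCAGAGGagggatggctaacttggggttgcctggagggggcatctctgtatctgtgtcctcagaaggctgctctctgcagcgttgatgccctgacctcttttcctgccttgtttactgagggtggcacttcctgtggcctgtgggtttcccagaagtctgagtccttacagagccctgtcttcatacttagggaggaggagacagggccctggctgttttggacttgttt
Sipa1l3: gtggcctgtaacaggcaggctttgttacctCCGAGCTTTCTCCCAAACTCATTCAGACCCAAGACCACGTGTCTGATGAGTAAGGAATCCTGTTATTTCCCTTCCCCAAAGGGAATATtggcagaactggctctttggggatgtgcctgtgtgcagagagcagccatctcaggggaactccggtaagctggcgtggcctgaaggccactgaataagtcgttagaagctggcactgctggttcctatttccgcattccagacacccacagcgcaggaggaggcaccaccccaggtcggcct
Gm28809: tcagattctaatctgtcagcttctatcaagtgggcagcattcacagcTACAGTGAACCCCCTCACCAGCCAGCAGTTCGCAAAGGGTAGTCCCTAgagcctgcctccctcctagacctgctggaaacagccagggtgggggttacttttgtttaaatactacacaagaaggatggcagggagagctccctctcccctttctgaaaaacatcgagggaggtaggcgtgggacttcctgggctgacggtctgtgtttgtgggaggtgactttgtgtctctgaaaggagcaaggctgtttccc

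The Gm14206 window (chr11:100291375-100291674, minus strand) lay wholly inside a site of 2703 bp, and 77 of its bases were shared with the WT H3K27ac peak, whose fold enrichment was 4.66. A mutant H3K27ac peak of 4.22-fold lay 761 bp from that site, which had no H3K4me3 peak within 1 kb in either line. The Sipa1l3 window (chr7:29505411-29505710, minus strand) shared 88 bases with a site of 434 bp and its WT H3K27ac peak of 5.90-fold, and the nearest mutant H3K27ac peak was 12915 bp away. The Gm28809 window (chr6:125480925-125481224, plus strand) shared 48 bases with a site of 478 bp and its WT H3K27ac peak of 3.56-fold. Here a mutant H3K27ac peak of 4.63-fold overlapped the site, and H3K4me3 was present in both lines. The 3 sites therefore differed in what the mutant lists held: H3K27ac nearby, neither mark, and both marks.

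Both strands of the windows were searched for 6 short motifs. The Sipa1l3 window held 1 match each to the TEAD motif GGAATG, the SOX motif ACAAAG and the E-box CACGTG, and the Gm28809 window held 1 SOX match. These letters occur in 14.7%, 18.7% and 7.15% of the 32851 start windows in the RefSeq table. Only the E-box lay among the capitals. The SOX match of the Sipa1l3 window lay in the site but outside the WT H3K27ac peak. The TEAD match and the SOX match of the Gm28809 window lay outside the lost sites. None of the 3 windows held the AP-1 motif TGANTCA (7.81% of all windows), the RUNX motif TGTGGT (16.8%) or the ETS motif CCGGAA (14.9%). A match describes letters and is not a binding site, and the search says nothing of the other sites.

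By their WT H3K4me1 signal the lost active sites were close to distal peaks in general. All distal WT H3K4me1 peaks had a median width of 422 bp and a median fold of 4.61. Together the lost active sites covered 2277 kb. Their median width was 446 bp (200 to 5289 bp) and their median fold enrichment over input 4.63 (3.59 to 6.83), both from the authors' peak caller. Active sites that kept a mutant H3K4me1 peak, of which there were 819, had a median width of 584 bp and a median fold of 4.68. The 9895 lost sites without WT H3K27ac had 401 bp and 4.59. The 3 sets thus differed in width more than in fold. The nearest mutant H3K4me1 peak lay a median of 88748 bp from a lost active site, and 591 of the sites had one within 10 kb. At the limits of the rule, the site closest to a mutant H3K4me1 peak was 1008 bp away and the nearest excluded one 999 bp. The corresponding distances to a gene end were 1004 and 999 bp. The most distant linked WT H3K27ac peak was 1000 bp away, and the nearest unlinked one 1001 bp.

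The 4 widest sites show the range of contexts. The widest, chr7:28918185-28923473, lay inside Actn4, which encodes the actin crosslinker alpha-actinin 4, with Capn12 as the nearest gene end. It carried a mutant H3K27ac peak of 4.47-fold beside its WT peak of 3.65-fold, and an H3K4me3 peak in the WT line alone. The next, in Zcchc24, measured 3576 bp and had no mutant H3K27ac peak within 13.5 kb. A site of 3398 bp in Fmnl2, which encodes an actin-nucleating formin, had mutant H3K27ac of 4.84-fold within 1 kb and WT H3K27ac of 4.72-fold. The peaks did not overlap, with summits 960 bp apart, and the mutant peak lay outside the site. The last, 3242 bp inside the growth factor gene Fgf2 and nearest to an end of Nudt6, had no mutant H3K27ac peak within 18.3 kb. Mutant H3K27ac was thus found within 1 kb of 2 of these 4 sites.

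Most lost active sites lay inside genes. Of the 3952 sites, 59.7% overlapped a protein-coding gene, 7.39% a lncRNA gene only, and 32.9% lay between genes. Active sites that were kept lay between genes in 27.5% of cases, and lost sites without WT H3K27ac in 27.2%. The median distance to a gene end was 12748 bp, and 43.6% of the sites were 10 to 50 kb from one. Only 1.54% of the 3833 sites on chromosomes covered by the start table lay within 1 kb of a listed transcript start. The sites were spread over the genome, with 119 to 367 on each autosome and 6 on X.

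The WT H3K27ac peaks that made these sites active were ordinary members of their list. They numbered 4050, or 15.3% of all WT H3K27ac peaks, and 82.1% of the sites were linked to a single one. Taking the most significant linked peak of each site, median fold enrichment was 5.36, against 5.42 at kept active sites taken likewise. Over every peak of the whole WT list, without such a choice, it was 5.25. The H3K27ac peak overlapped the H3K4me1 peak at 40.3% of the sites. At the others it lay beside it, at a median gap of 442 bp. Because H3K4me1 peaks can flank 1 H3K27ac peak, 1166 sites shared an H3K27ac peak with another site and are not independent of it.

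Mutant H3K27ac, which the rule did not use, was absent within 1 kb of most of the sites. It was present at 1091 of 3952 lost active sites, or 27.6%, against 46.0% of kept active sites, 11.3% of lost sites without WT H3K27ac and 18.3% of all distal WT H3K4me1 peaks. The 95% Wilson intervals were 26.2 to 29.0%, 42.6 to 49.5% and 10.7 to 11.9% for the 3 sets. Lost active sites thus lay 18.4 percentage points below kept active sites (difference −18.4, Newcombe 95% interval −22.1 to −14.8) and 16.3 points above lost sites without WT H3K27ac (14.8 to 17.8). All intervals cover counting error over regions only, not differences between cultures or libraries. Counting only mutant H3K27ac peaks that overlapped the site, the shares were 11.1%, 21.9% and 4.05% in the same order. Within 5 kb they were 43.6%, 70.2% and 30.1%, and within 50 kb 85.4%, 95.7% and 80.6%, so the sets were ordered alike at every one of these distances.

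**Figure D1:**
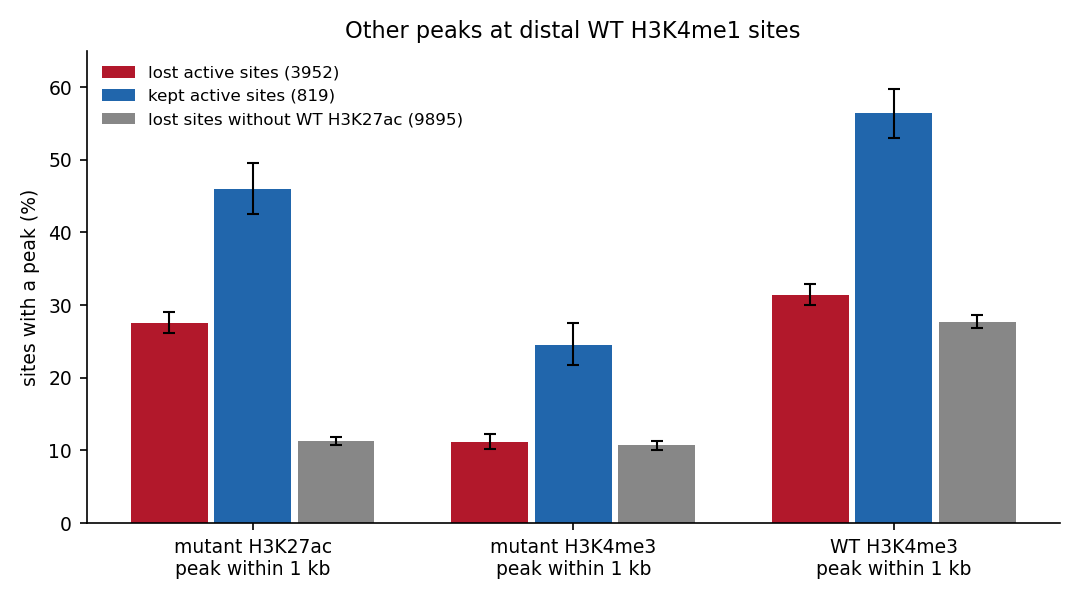
Share of sites (%) with a mutant H3K27ac, mutant H3K4me3 or WT H3K4me3 peak within 1 kb, for lost active sites (red), kept active sites (blue) and lost sites without WT H3K27ac (grey). Bars are percentages of the number of sites in the legend and lines are 95% Wilson intervals; mutant H3K27ac stood at 27.6%, 46.0% and 11.3% in the 3 sets, while mutant H3K4me3 stood at 11.1%, 24.5% and 10.7%.

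Where the mutant line had H3K27ac, the most significant peak within 1 kb of the site was close in fold to the whole mutant list. The median fold of that peak at the 1091 sites was 5.34, against 5.16 over every peak of the whole mutant list, where none was chosen for strength. The strongest mutant and WT peaks near a site often did not coincide. Peaks were short, with a median width of 107 bp in the mutant H3K27ac list and 116 bp in the WT list. Whether the distances and overlaps below differ from those at other sites was not tested. The summits of the strongest mutant and WT peaks lay a median of 489 bp apart, and 30.9% of the pairs lay within 250 bp. Of the 4050 linked WT H3K27ac peaks, 27.3% had a mutant peak within 1 kb but 7.26% were overlapped by one. WT H3K27ac had a median fold of 5.62 at sites with mutant H3K27ac and 5.28 at sites without it.

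**Figure D2:**
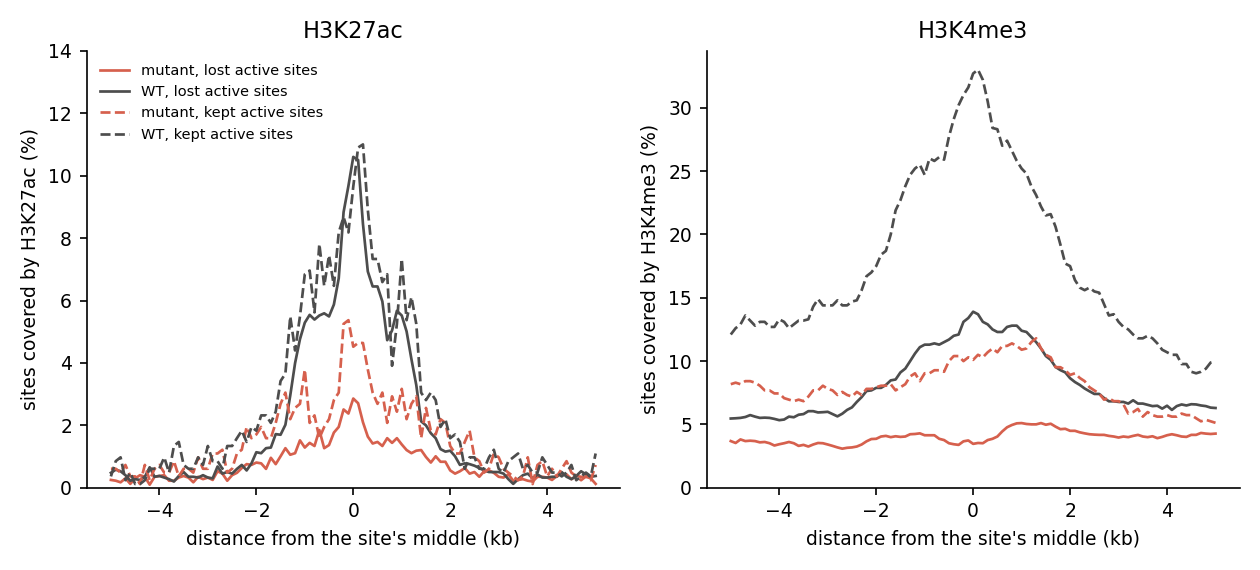
Share of sites (%) covered by a peak at each distance from the middle of the site (kb), for H3K27ac (left) and H3K4me3 (right); orange lines are the mutant list, dark lines the WT list, solid lines lost active sites and dashed lines kept active sites. At the middle of lost active sites mutant H3K27ac covered 2.86% and WT H3K27ac, which the rule required nearby, 10.6%; WT H3K4me3 covered 13.9% of lost and up to 33.0% of kept active sites.

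The share with mutant H3K27ac followed the strength of the WT H3K27ac peak, and not that of WT H3K4me1. When active sites were split into 3 equal groups by the −log10 p of their strongest WT H3K27ac peak, mutant H3K27ac was present at 18.8%, 27.5% and 37.1% of lost active sites from the weakest to the strongest of the 3 groups. Kept active sites had 30.7%, 43.2% and 59.0%. The difference, lost minus kept, was −11.9, −15.7 and −21.9 points, and each interval lay below 0. Split by WT H3K4me1 fold, lost active sites had 28.0%, 27.6% and 27.2%, and kept active sites 48.8%, 42.0% and 47.4%. The lower share at lost sites was therefore present in every group of both splits.

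**Figure D3:**
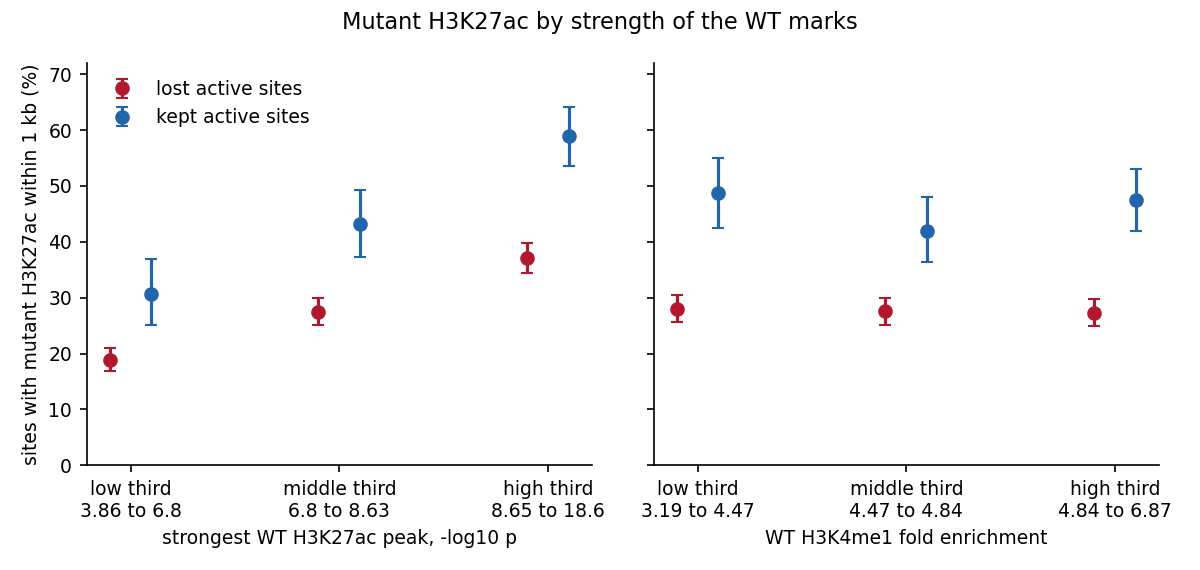
Share of sites (%) with mutant H3K27ac within 1 kb, for lost (red) and kept (blue) active sites split into 3 equal groups by the −log10 p of the strongest WT H3K27ac peak (left) and by WT H3K4me1 fold enrichment (right). Points are percentages and lines 95% Wilson intervals; lost active sites reached 18.8 to 37.1% across the groups by WT H3K27ac and 27.2 to 28.0% across those by WT H3K4me1.

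Sites chosen by rule for their H3K27ac illustrate both outcomes. The 8 genes nearest to the strongest WT H3K27ac peaks, ranked by −log10 p, were Irf2bpl, Tbc1d23, Scfd2, Siglec1, Kmt2e, Mdm4, Tacc2 and Ccdc71l. At the site near Irf2bpl (chr12:86897804-86898248) the mutant H3K27ac peak was 5.17-fold and the WT peak 8.96-fold, with summits 53 bp apart. A site near Siglec1, which encodes a sialic acid-binding lectin of macrophages, had 7.11-fold in the mutant and 9.24-fold in the WT line. The summits there lay 149 bp apart. The sites near Tbc1d23 and Kmt2e, a SET-domain gene related to the H3K4 methyltransferases, had mutant peaks of 5.37-fold and 5.10-fold. The WT peaks there, of 9.26-fold and 9.20-fold, did not overlap the mutant ones, with summits 198 and 954 bp apart. The other 4 had no mutant H3K27ac within 1 kb. For Scfd2, Mdm4 (an inhibitor of p53) and Tacc2 the nearest mutant peak was only 1.47, 1.53 and 1.85 kb away, just past the limit, and for Ccdc71l it was 36.6 kb away.

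At the 6 sites with the strongest mutant H3K27ac peaks, the mutant peak exceeded the strongest WT H3K27ac peak within 1 kb of the site in fold. The mutant and WT peaks did not overlap at any of the 6. Their summits lay from 170 bp (Otogl) to 1054 bp (Csl) apart. In Hsf2bp, a gene of meiotic recombination, the mutant peak was 13.2-fold and the WT peak 8.18-fold at chr17:31993078-31993787, and 13.2 was also the highest fold in the mutant list. The corresponding values were 10.6-fold and 6.33-fold near Csl, 9.53-fold and 6.15-fold in the magnesium channel gene Trpm6, and 8.34-fold and 4.88-fold near Socs5, a suppressor of cytokine signalling. Near Otogl they were 9.50-fold and 5.49-fold, and in the guanylate cyclase gene Gucy2g 9.25-fold and 6.76-fold. These 6 were selected for a high mutant value, and folds of separately called lists are not on a shared scale. None of the 6 had a mutant H3K4me1 peak within 1 kb, by the rule, and the nearest one ranged from 1.86 kb at Socs5 to 1158 kb at Gucy2g.

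WT H3K4me3 lay within 1 kb of 31.4% of lost active sites, against 56.4% of kept active sites, 27.7% of lost sites without WT H3K27ac and 32.5% of all distal WT H3K4me1 peaks. Mutant H3K4me3 lay near 440 lost active sites, or 11.1% (10.2 to 12.2%), against 24.5%, 10.7% and 13.2% of the same sets. The difference from kept active sites was −13.4 points (−16.6 to −10.4). From lost sites without WT H3K27ac it was 0.421 points (−0.710 to 1.60), an interval that includes 0. Lost active sites were thus near the share of all distal sites for H3K4me3, unlike for H3K27ac.

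Mutant H3K4me3 was found mostly where the WT line had it, at these sites as at all distal sites. It was present at 425 of the 1241 sites with WT H3K4me3, or 34.2% (31.7 to 36.9%), and at 15 of the 2711 sites without it, or 0.553%. Over all distal WT H3K4me1 peaks the 2 shares were 39.4% and 0.663%. The kept fraction depended on where the WT H3K4me3 peak lay. Where that peak reached within 1 kb of a gene end, mutant H3K4me3 was present at 78.9% of 185 sites, and where the peak was itself distal, at 26.4% of 1056 sites. WT H3K4me3 peaks at sites that also had mutant H3K4me3 within 1 kb had a median width of 2121 bp and a median MACS score of 723. WT H3K4me3 peaks at sites without mutant H3K4me3 had 768 bp and 98.9, so these were shorter and lower-scoring at the median. A WT peak near sites of both kinds counts in both groups. Across these sites mutant H3K27ac varied little with H3K4me3: it was present at 30.6% of sites with H3K4me3 in both lines, 28.7% with it in the WT line alone and 26.8% of those with no WT H3K4me3.

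Counting both marks, 2558 lost active sites (64.7%) had neither H3K27ac nor H3K4me3 within 1 kb in the mutant lists. Another 954 (24.1%) had H3K27ac alone, 303 (7.67%) H3K4me3 alone and 137 (3.47%) both. Neither mark was found at 39.1% of kept active sites, 79.4% of lost sites without WT H3K27ac and 71.3% of all distal sites, so lost active sites lacked both marks less often than lost sites without WT H3K27ac and more often than kept active ones.

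H3K27me3 was rare at these sites and at distal sites in general, and 1 site per list is too few to compare them. Regions higher in the mutant came within 1 kb of 1 of 3952 sites (0.0253%, 0.00447 to 0.143%), against 0.0639% of all distal WT H3K4me1 peaks. The WT H3K27me3 list also came within 1 kb of 1 site, against 0.115% of all distal peaks. The mutant region measured 151 bp with a fold of 4.21 over the WT library, at chr4:83327661-83328124, a site in the lncRNA gene Gm42306 with Ttc39b as the nearest protein-coding gene. That site had WT H3K27ac of 5.80-fold and WT H3K4me3, and no mutant peak of either mark within 1 kb.

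When lost active sites less than 10 kb apart were joined, 2297 stood alone, 41.9% lay in 721 stretches of 2 or more, and 12 stretches held 5 or 6. The 66 sites of the 12 longest runs had mutant H3K27ac at 43.9% (32.6 to 55.9%), single sites at 27.4% (25.6 to 29.3%) and sites in runs of 2 to 4 at 27.2%. Several of the 66 share an H3K27ac peak, so this interval is too narrow. Mutant H3K4me3 was found at 13.6% of single sites, 7.74% in runs of 2 to 4 and 7.58% in the longest runs.

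The Smad3 stretch (chr9:63703133-63718745) held 6 sites inside the gene for the main transcription factor activated by TGF-beta receptors. Its first 4 sites all lay near the same pair of H3K27ac peaks, the mutant one at 6.68-fold and the WT one at 6.58-fold. The last 2 sites had a WT H3K27ac peak of 4.07-fold and no mutant peak within 1 kb. No H3K4me3 peak of either line lay in the stretch. The Ltbp2 stretch (chr12:84844811-84866321) held 6 sites in the gene for a latent TGF-beta binding protein of the extracellular matrix. It had 2 mutant H3K27ac peaks and 6 WT ones, and no mutant against 3 WT H3K4me3 peaks. Mutant H3K27ac, at 4.66-fold and 5.08-fold, was within 1 kb of 3 of its 6 sites.

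**Figure D4:**
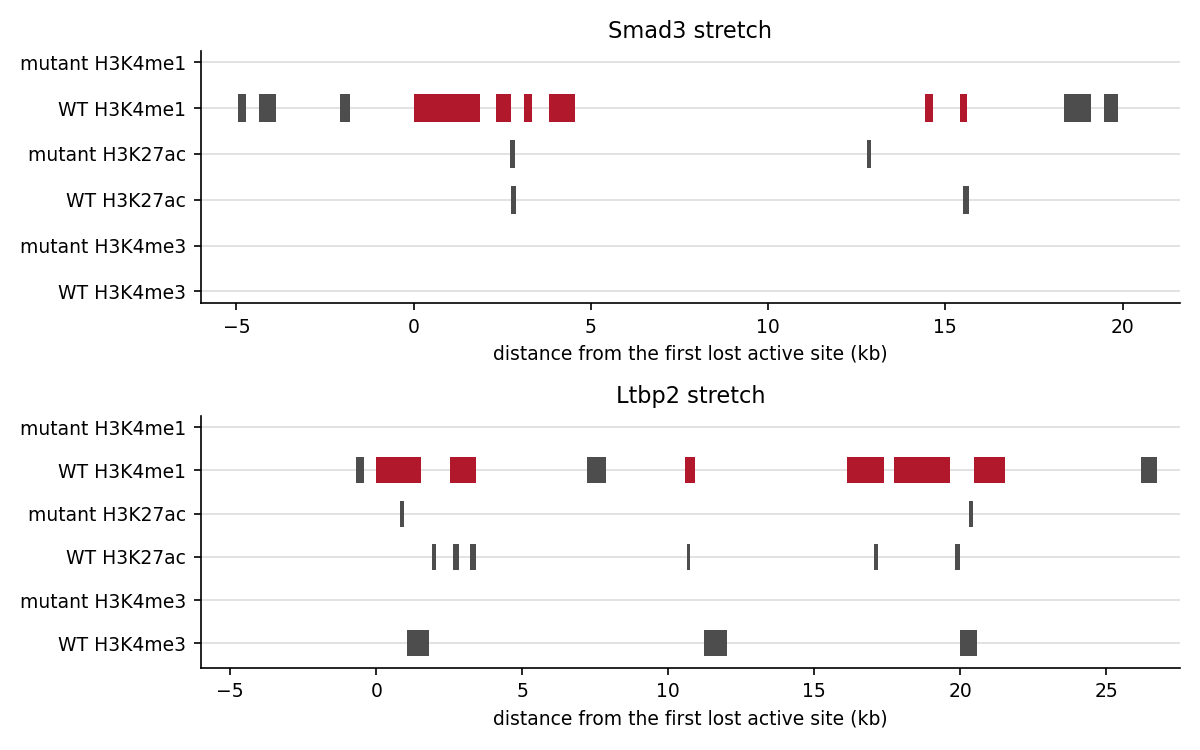
Peaks of each list along the Smad3 stretch (top) and the Ltbp2 stretch (bottom), by distance from the start of the first lost active site (kb). Boxes are peaks drawn to scale, with lost active sites in red and other peaks in dark grey. The mutant H3K4me1 row is empty in both. Within 1 kb of each lost active site this was fixed by the rule that chose the sites, and the rule does not fix the rest of the row. The mutant H3K27ac row holds 2 peaks within each stretch, against 2 WT peaks at Smad3 and 6 at Ltbp2.

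The other stretches of 6 sites differed in the same 2 marks. At Lrrc8a, which encodes the essential subunit of the volume-regulated anion channel, 5 of 6 sites had mutant H3K27ac, with 3 mutant and 7 WT H3K27ac peaks in the stretch. At Arhgap35, 2 of 6 sites had it, with 1 mutant and 2 WT peaks. Ppcdc, a gene of coenzyme A synthesis, had it at 2 of 6 sites with 1 mutant and 5 WT peaks. Near Dusp7, a MAP kinase phosphatase gene, 1 of 6 sites had it, again with 1 mutant and 5 WT peaks. H3K4me3 was absent in the mutant line from all 6 stretches of 6 sites. In the WT line it was present in 4 of them and absent at Ppcdc and Smad3.

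By nearest gene end within 100 kb, 3416 of the sites were assigned to 2097 protein-coding genes. Of these genes, 1347 had a single site and 62 had 5 or more. The 12 genes with the most sites were Rxra and Septin9 with 9 each, Sh3pxd2a, Smad3, Eps8, Camk2d, Rbfox2, Sik3 and Akap13 with 8 each, and Ptk2, Slc6a6 and Lpp with 7 each. These 12 genes had a median length of 208 kb, against 17.2 kb for all protein-coding genes, and the part of length in their counts was not tested.

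Rxra encodes the retinoid X receptor alpha, the partner of many nuclear receptors. Its 9 sites had mutant H3K27ac at 4 and no H3K4me3 in either line, and its surroundings within 50 kb held 4 mutant and 9 WT H3K27ac peaks. Sik3, a salt-inducible kinase gene, had mutant H3K27ac at 0 of its 8 sites, with 3 mutant and 18 WT H3K27ac peaks within 50 kb. Akap13, which encodes an anchoring protein for protein kinase A, also had it at 0 of 8, with 10 and 16 peaks. The 2 genes thus had equal site counts but different amounts of mutant H3K27ac around them.

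Smad3 had mutant H3K27ac at 5 of 8 sites, with 8 mutant and 9 WT peaks within 50 kb. Ptk2, which encodes focal adhesion kinase, had mutant H3K27ac at 3 of 7 sites, with 8 mutant and 14 WT peaks within 50 kb. Lpp, a LIM-domain protein of focal adhesions, had it at 5 of 7, with 22 and 24 peaks. Eps8, an actin-capping protein, had it at 3 of 8, with 12 and 13 peaks. Sh3pxd2a encodes the invadopodia scaffold TKS5 and had it at 2 of 8, with 23 and 20 peaks, and it was the gene of the 12 with the most kept active sites nearby, 8. Septin9, a cytoskeletal GTPase, had it at 1 of 9, with 11 and 12 peaks. In the last 3 genes, Slc6a6, the taurine transporter, had it at 4 of 7, Camk2d, a calcium-regulated kinase, at 2 of 8, and Rbfox2, a splicing regulator, at 1 of 8.

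Of all 21887 protein-coding genes, 4419 (20.2%) had a lost active site within 50 kb. For genes with H3K27ac at a gene end in the WT line, the share that also had it there in the mutant line was 42.7% (40.4 to 45.1%) with at least 1 lost active site nearby, against 44.3% (42.9 to 45.8%) with none and 43.9% over all genes. It was 44.1% with 1 site, 41.5% with 2 and 39.3% (33.6 to 45.2%) with 3 or more. These intervals overlap, and a lower share near the sites could not be told from counting error. Gene-end H3K4me3 was kept at 97.2% of genes with 3 or more sites and at 97.6% of genes with none.

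Of the 25 genes of the TGF-beta pathway list, 13 had a lost active site within 50 kb (52.0%, Wilson 95% interval 33.5 to 70.0%), against 20.2% of all protein-coding genes and 27.3% of genes with WT H3K4me3 at an end. Distal WT H3K4me1 peaks of any kind lay within 50 kb of 20 of the 25 genes and of 9306 of the 21887 protein-coding genes, so the list was also above all genes for distal sites in general. Among the 13, sites lay within 50 kb of ligands and their storage proteins (Tgfb1, Tgfb2 and Tgfb3, Ltbp1 with 5 and Ltbp2 with 6) and receptors (Tgfbr1 and Tgfbr3). They also lay within 50 kb of transducers and inhibitors (Smad3 with 8, Ski and Smurf1 with 4 each, and Smad6) and the target gene Tgfbi with 5. By nearest gene end, 8 sites were assigned to Smad3, 6 to Ltbp2, 5 to Tgfbi, 1 to Ltbp1 and 0 to Tgfb1, Tgfb3 or Tgfbr1. In all lists, sites were counted within 50 kb of a gene, whichever gene was nearest. Within 50 kb, Ltbp1 had 6 mutant and 13 WT H3K27ac peaks, Tgfbi 3 and 7, and Tgfb3 0 and 5. The median length of the list's genes was 70.7 kb, against 17.2 kb for all genes, and the part of gene length in this share was not tested.

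Collagen and matrix genes had sites near 14 of 26 members (53.8%), among them Col5a1, Sparc and Timp3 with 4 each. Col5a1, a fibrillar collagen chain, had 4 mutant and 8 WT H3K27ac peaks within 50 kb, and Timp3, a metalloproteinase inhibitor, 5 and 6. TEAD, YAP and target genes had sites near 8 of 16, with 4 at Vgll4, a TEAD cofactor that competes with YAP. The list of the undifferentiated or neural crest state had 12 of 26 (46.2%), with 3 each within 50 kb of Nes, Nrp1 and Zeb2. IGF and insulin signalling also had 12 of 26 (46.2%), with 3 each within 50 kb of Akt1, Igf1r, Igf2r and Igfbp6. The genes of these 4 lists had median lengths of 48.5, 43.2, 26.4 and 68.8 kb, against 17.2 kb for all protein-coding genes. A distal WT H3K4me1 peak of any kind lay within 50 kb of 25, 12, 17 and 22 of them. Among all 21887 protein-coding genes, 9306 had such a peak and 4419 (20.2%) had a lost active site. The part of gene length and of distal peaks in general in the shares of these lists was not tested.

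Melanocyte lineage and pigment genes were close to the background, with 6 of 24. Met, the hepatocyte growth factor receptor, had 6 sites, with 2 mutant and 9 WT H3K27ac peaks within 50 kb. Trpm1 had 3 sites and Mc1r, the melanocortin receptor, 2, while Sox10, Mlana and Slc24a5 had 1 each. Glycolysis genes had 9 of 26 (34.6%). Within 50 kb, Hk1 had 4 sites (9 mutant and 8 WT H3K27ac peaks) and Aldoc and Ldha 3 each (2 and 7, and 3 and 7). MAPK feedback genes had 6 of 17 (35.3%), led by Dusp5 with 4. AP-1 subunits had 5 of 15 (33.3%), among them Fosb with 2 and Jun with 1. The list named for H3K4 and H3K27 enzymes, which also holds other acetyltransferase and deacetylase genes, had 7 of 25 (28.0%). It had 3 sites within 50 kb of the acetyltransferase gene Kat2a and 2 within 50 kb of the demethylase gene Kdm6b. None of these was assigned to Kat2a or Kdm6b by nearest gene end. No site lay near Kmt2a, Kmt2b, Kmt2c or Kmt2d.

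Housekeeping genes had 6 of 20. Among markers of other cell types, fibroblast genes had 5 of 12, including Pdgfrb with 3 sites (0 mutant and 5 WT H3K27ac peaks) and Col1a1 with 2 (4 mutant and 3 WT peaks), immune and endothelial genes 3 of 12 each, and keratinocyte genes 1 of 12. The lists share a few genes, among them Col1a1 and Fosl1. Neighbouring genes also count the same sites, such as Pdgfrb and Csf1r in different lists and Col6a1 and Col6a2 in the same list. The intervals do not allow for such sharing. All 15 lists were chosen with earlier results of these data known, and the intervals of 10 of them include the value for all genes.

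**Figure D5:**
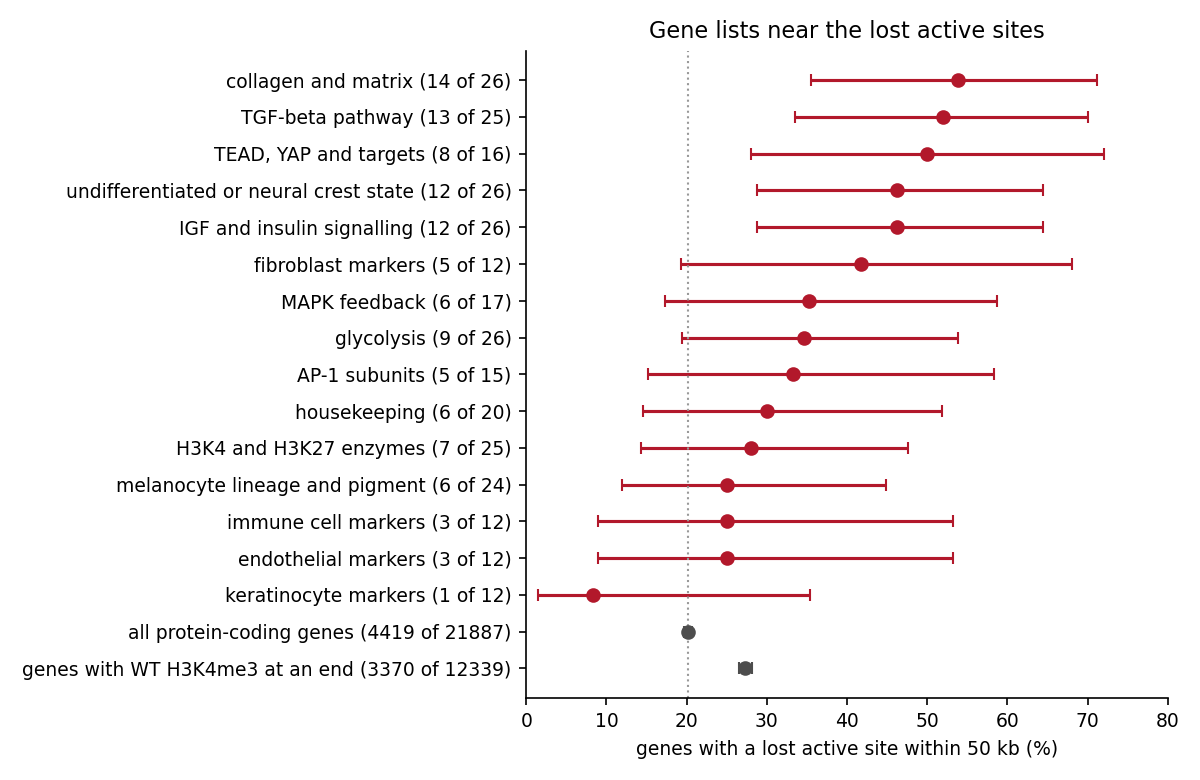
Share of the genes of each list (%) with a lost active site within 50 kb, with 95% Wilson intervals (lines) and the counts in brackets; red points are the 15 lists, dark points all protein-coding genes and those with WT H3K4me3 at a gene end, and the dotted line is the share of all protein-coding genes. The lists run from 8.33% for keratinocyte markers to 53.8% for collagen and matrix, beside 20.2% for all genes.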

How the data were processed

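The 8 peak lists, 1 per ChIP library, were analysed as the authors deposited them; reads and the 4 input libraries were not analysed here. Per the submitters' processing notes, the steps used FastQC, MultiQC, MACS2 and build mm10. Neither aligner, versions nor depth is given in these sources. Peaks of the MACS2 lists carry a deposited fold enrichment over control (a ratio) and a −log10 p value deposited by the authors. The H3K4me3 lists hold the older MACS score, deposited as −10 times log10 of p, with a floor of 50.0.

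Peaks on assembled chromosomes were linked when at most 1 kb apart, with pandas and numpy, and the functions were tested on simulated data. Gene models are RefSeq for GRCm38, without strand. No test across features was possible with 1 library per group. Shares have Wilson and differences Newcombe intervals. Named genes had the most sites, the strongest H3K27ac in either line, mutant-over-WT H3K27me3, the widest sites, the longest runs, or the most sites in a gene list. The members and lists were chosen with earlier results of these data known. A planned motif search over all sites was not run. One gene of a list is not reported here.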

Additional observations from a re-analysis of the deposited data

How the results depend on the processing

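Direction was kept throughout: mutant H3K27ac was less frequent at lost than at kept active sites under every alternative, with differences from −24.1 points (peaks linked within 2.5 kb) to −14.3 (more significant 50% of each list). The number of lost active sites was 3952, and became 1720 with 1 bp overlap, 1296 with the more significant 50% of each list and 708 with WT lists shortened to the mutant lists' length. Other values that moved beyond their counting interval follow, as percentages in the order 1 bp overlap, 2.5 kb and the more significant 50%. Mutant H3K27ac was 15.1, 35.3 and 21.6, and 31.4 with lists of equal length. WT H3K4me3 was 19.7, 39.9 and 6.94, and 22.7 with equal length and 29.3 with distal set at 2.5 kb. Mutant H3K4me3 was 4.13, 19.2 and 3.47, and 8.36 with distal set at 2.5 kb. WT H3K27me3 was 0, 0.226 and 0, and 0 with equal length. Gene-end H3K27ac kept near the sites was 5.26, 50.7 and 30.1; the first rests on 38 genes whose end itself is covered. The cause of these shifts beyond fewer or wider links was not tested. Leaving out chromosomes 10 and 19 moved none of the 7 main results. The 12 genes with the most sites had 1 to 6 sites each with 1 bp overlap, 6 to 13 with 2.5 kb and 2 to 5 in the stricter lists; these are counts, and the sites need not be the same ones. No paired analysis was possible because each line has 1 library per mark. Depth is unknown, so no limit of detection can be given for a site missing from a list.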
